A study of Mus musculus with 9 samples.

Results

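The constitutive proteasome subunit genes were followed in day 10 dendritic cells (DCs) of 3 mouse groups: wild-type B6, CIITA-/- and IAb-/-. CIITA switches on transcription of MHC class II genes, and IAb is the class II molecule whose beta chain is encoded by H2-Ab1. Members were taken by name from the platform annotation. They are the genes whose probe sets carry a single symbol that starts with Psma, Psmb, Psmc, Psmd or Psme and a digit, without the interferon-inducible Psmb8, Psmb9 and Psmb10. The rule found 40 genes of the 8388 genes with a single symbol. It also took Psmc3ip and Psme3ip1, which are named after a proteasome subunit but are not subunits themselves. Each group has 3 arrays, numbered in the titles as experiments 1, 2 and 3. Experiment 1 was run on one array design (49 member probe sets, 40 genes), and experiments 2 and 3 on another (50 member probe sets, 39 genes). The labels give no treatment, age or sex, do not describe how either mutation was made, and are silent on whether a group's arrays stem from different animals or cultures. The p-values therefore cover the array-to-array spread alone, part or all of which may be technical. RNA of whole cell samples was measured, so fewer cells of a type and less RNA per cell cannot be told apart.

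The deposited values are intensities on a linear scale, with 21.0% to 26.4% of an array's probe sets below 0. A noise limit was set so that 95% of the negative values are smaller in size, at 1701 for experiments 2 and 3 and 2203 for experiment 1. Of the 16 DC marker genes, 15 lay above it on all 6 arrays of experiments 2 and 3, among them Itgax, Cd83 and Ccr7, while none of the 7 T cell, 5 NK cell or 7 mast cell genes did. The marker lists of macrophages (4 of 10), neutrophils (2 of 9), B cells (1 of 5), erythroid cells (1 of 4) and fibroblasts (2 of 6) had some genes above it. Their part in the values below was not tested. The class II gene H2-Aa read below 0 on both CIITA-/- arrays and between 29271 and 53578 on the other 4. The Ciita probe set lay below the noise limit on every array of experiments 2 and 3. It read 1601 and 1639 on the CIITA-/- arrays and 398 to 933 on the other 4. In experiments 2 and 3, H2-Ab1 read 16070 and 9621 on the arrays labelled IAb-/-. It read 17261 and 21348 in B6 and 615 and 112 in CIITA-/-. No source used here places these probes relative to the altered parts of the genes, so neither probe set can check the label of its own knockout.

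The proteasome degrades ubiquitin-tagged proteins in all cells and, in antigen-presenting cells, produces peptides that MHC class I molecules display. Its core is a barrel of stacked rings, with outer rings of alpha subunits (the Psma genes) and inner rings of beta subunits (the Psmb genes), of which Psmb5, Psmb6 and Psmb7 carry the active sites. A cap sits on the barrel, with a ring of ATPases (Psmc genes) that unfold and thread the substrate and with non-ATPase subunits (Psmd genes) that bind and remove ubiquitin. Psme proteins are alternative activators of the core. Interferon-induced subunits can replace the catalytic ones to form the immunoproteasome. When the proteasome is inhibited, the transcription factor Nfe2l1 raises many subunit genes together through antioxidant response elements, which is why the genes of this complex are often described as one regulated group.

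RefSeq promoter windows (assembly GRCm38.p6, 250 bases before to 50 bases after the start) were available for 34 of the 40 genes. They were searched on both strands for 5 short motifs. Stretches of 6 windows are printed because they belong to catalytic, cap and activator genes and hold a match to 1 of the 2 motifs the counts below turn on. The first pair has an antioxidant response element core in capitals, and the other four have an ETS motif in capitals.
Psmb5, chr14:54618014-54618062, minus strand: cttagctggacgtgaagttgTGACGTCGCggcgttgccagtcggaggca
Psmb6, chr11:70525328-70525356, plus strand: cagaggcggactaaagagagTGACGGAGC
Psmc6, chr14:45329704-45329750, plus strand: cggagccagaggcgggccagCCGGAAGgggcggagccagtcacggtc
Psmd12, chr11:107479491-107479527, plus strand: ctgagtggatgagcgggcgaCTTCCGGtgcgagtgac
Psme4, chr11:30771702-30771748, plus strand: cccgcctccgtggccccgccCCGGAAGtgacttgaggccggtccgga
Psmd11, chr11:80428584-80428614, plus strand: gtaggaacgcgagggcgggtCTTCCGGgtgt
All 6 stretches lie upstream of the annotated start, outside the transcript, and end between 1 and 74 bases before it. In Psmd12 and Psmd11 the ETS motif is on the opposite strand and reads as its reverse complement.

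The antioxidant response element core (TGACNNNGC) was present in windows of 6 of the 34 genes, Psmb5, Psmb6, Psmc6, Psmd12, Psmd9 and Psme4. This is 17.6% of the proteasome genes, beside 14.0% of all 27025 genes with a window. The ETS motif (CCGGAAG) was present in 14 of 34 genes, or 41.2%, beside 9.9% of all genes. It was found in cap genes (Psmc1, Psmc2, Psmc6, Psmd2, Psmd4, Psmd6, Psmd11, Psmd12, Psmd13), in Psme3 and Psme4, and in Psma6. Psmc3ip and Psme3ip1, which are counted among the 34 but are not subunits, also held it. No Psmb window held it, but not every member gene had a window, and genes without one could not be searched. The GC box (GGGCGG) was in 64.7% of the proteasome genes and 38.2% of all genes, and CCAAT in 41.2% and 41.1%. The STAT motif (TTCNNNGAA) was in 1 gene, Psmd2, or 2.9% beside 9.6%. In 2 places matches of different motifs overlapped. These are letter matches in a short window, with no measurement of binding.

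**Figure D1:**
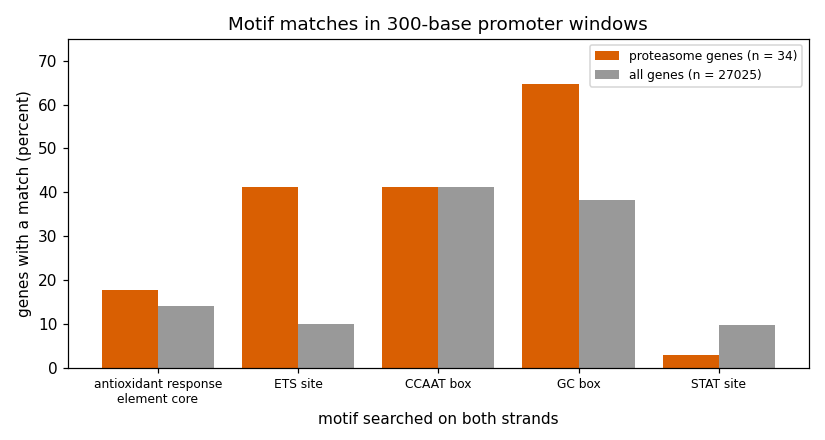
Percent of genes whose promoter window (250 bases before to 50 after the start) holds each of 5 motifs, for 34 proteasome genes and for all 27025 genes with a window. The 34 include Psmc3ip and Psme3ip1, which are not subunits. The ETS motif stands at 41.2% of the proteasome genes and 9.9% of all genes, and CCAAT at 41.2% and 41.1%.

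Most subunits were measured well above background in all groups. In experiments 2 and 3, 35 of the 50 member probe sets (32 of 39 genes) lay above the noise limit on all 6 arrays, 1 on some arrays and 14 on none. All 7 alpha genes, all 7 beta genes, 5 of 6 ATPase genes, 8 of 11 non-ATPase cap genes, 2 of 3 cap assembly chaperones and 2 of 3 activator genes had a probe set above it. The median intensity of the 35 was 8940, beside 5593 for all 3692 probe sets above the noise limit on all 6 arrays. They also varied little: the median standard deviation of log2 intensity over the 6 arrays, groups and experiments together, was 0.11, beside 0.15. The comparison set was not matched to the members for intensity. Apart from the median intensities above, levels are compared between arrays only, since the probe sets of different genes respond differently.

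**Figure D2:**
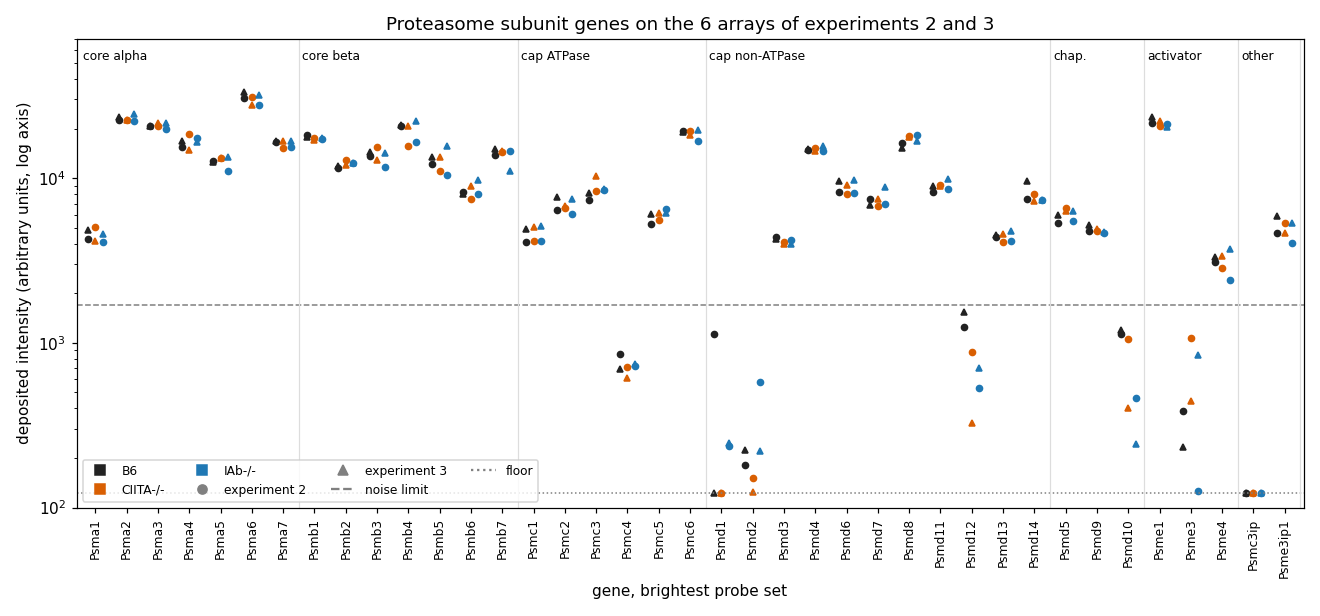
Deposited intensity (log axis) of the brightest probe set of each of the 39 genes on the 6 arrays of experiments 2 and 3, with colour for the group and shape for the experiment; the dashed line is the noise limit of 1701 and the dotted line the floor of 123.5, at which values under it are drawn. The 3 colours lie close together for the genes above the noise limit, and the points spread widest for genes under it, such as Psmd1 and Psme3.

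No alpha ring gene passed the test, and all differences in experiments 2 and 3 were small. Psma1, Psma2, Psma3, Psma4, Psma5, Psma6 and Psma7 differed by -0.12 to 0.07 on the log2 scale between CIITA-/- and B6 and by -0.11 to 0.08 between IAb-/- and B6. In experiment 1 the ranges were wider, -0.01 to 0.38 and 0.04 to 0.27. Psma7 was at the top of both, with 14552 in B6, 18992 in CIITA-/- and 17520 in IAb-/-. Psma6 (96952_at), an outer-ring subunit, read 30675 in B6, 31268 in CIITA-/- and 27728 in IAb-/- in experiment 2, and 33360.1, 27836 and 31779 in experiment 3. The CIITA-/- arrays were thus above B6 in one experiment and below it in the other, and the groups overlapped (log2 difference -0.12, SE 0.16, n = 2, limma adjusted p = 0.937). In experiment 1 the same probe set read 28093, 31559 and 33666, with B6 the lowest. Psma5 (94841_at) read 12772, 13264 and 11107 in experiment 2 and 12537, 13308 and 13421 in experiment 3, in the same group order. Both CIITA-/- arrays lay above both B6 arrays, by 0.07 on the log2 scale (95% interval -0.34 to 0.48), and the IAb-/- arrays lay on either side. In experiment 1 it read 13265 in B6, 13203 in CIITA-/- and 13941 in IAb-/-, with CIITA-/- no longer above B6. Psma2 had one of the narrowest ranges, with a highest array 1.09-fold above the lowest of the 6.

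Of the beta ring, none of the catalytic subunits passed the test. Psmb5 (101558_s_at), with chymotrypsin-like activity, read 12235 in B6, 11058 in CIITA-/- and 10485 in IAb-/- in experiment 2, and 13385, 13421 and 15675 in experiment 3. All arrays of experiment 3 lay above those of experiment 2, and the groups overlapped (log2 -0.07, SE 0.25, for CIITA-/- against B6 and 0.00, SE 0.25, for IAb-/- against B6, n = 2). Psmb6 (101992_at), with caspase-like activity, read 8206, 7491 and 7985 in experiment 2 and 8050 in B6, 8974 in CIITA-/- and 9685 in IAb-/- in experiment 3. Its groups overlapped too (log2 0.01 and 0.11, SE 0.18, n = 2). Psmb7 (94263_f_at), with trypsin-like activity, read 13815, 14430 and 14605 in experiment 2 and 15008, 14507 and 11087 in experiment 3. Its IAb-/- value was the highest of experiment 2 and the lowest of experiment 3, so the difference of CIITA-/- from IAb-/- (log2 0.19, 95% interval -0.31 to 0.68, adjusted p = 1) rests on 1 array. In experiment 1 the 3 catalytic genes did not move together: in the order B6, CIITA-/-, IAb-/-, Psmb5 read 14147, 15209 and 14102, Psmb6 read 8655, 10132 and 7758, and Psmb7 read 16637, 15408 and 16634. The dim probe set of Psmb5 (160559_at) passed the noise limit on 3 arrays, all in experiment 3.

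Of the non-catalytic beta subunits, Psmb4 (98557_f_at) showed the largest log2 difference below 0 between CIITA-/- and B6 among the 35 probe sets. It read 20574 in B6, 15731 in CIITA-/- and 16613 in IAb-/- in experiment 2, and 20960.1, 20756 and 22352 in experiment 3. The gap lay almost wholly in experiment 2 (log2 -0.20, 95% interval -0.81 to 0.40, adjusted p = 0.933), and in experiment 1 Psmb4 read 21438 in B6, 23934 in CIITA-/- and 24240 in IAb-/-. Psmb1 (98113_at) was the steadiest, between 17047 and 18208 on all 6 arrays, a range of 1.07-fold. All 4 mutant arrays lay below both B6 arrays (log2 -0.06 for CIITA-/- and -0.05 for IAb-/-), while in experiment 1 the differences were 0.12 and 0.21. Psmb1 has a second bright probe set (160875_at), which ranged from 9853 to 12781, and another below the noise limit. Psmb2 lay slightly above both B6 arrays on all 4 mutant arrays, by 0.09 and 0.08 on the log2 scale. In experiment 1 it read 11402 in B6, 9949 in CIITA-/- and 11775 in IAb-/-, with CIITA-/- below B6 by a larger margin (log2 -0.20).

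The ATPase ring held the largest positive difference of the 35 probe sets, in Psmc3, a subunit of the hexamer that unfolds substrates. Its probe set 93735_f_at read 7378 in B6, 8378 in CIITA-/- and 8459 in IAb-/- in experiment 2, and 8081, 10252 and 8555 in experiment 3. Both CIITA-/- arrays lay above both B6 arrays, by 0.26 on the log2 scale (SE 0.17, 95% interval -0.17 to 0.70, n = 2), which did not pass the test (limma adjusted p = 0.931). Experiment 1 showed the same direction, with 6358 in B6, 8404 in CIITA-/- and 7056 in IAb-/-. The other bright Psmc3 probe set (93734_i_at) gave -0.07 in experiments 2 and 3 and 0.26 in experiment 1 (4335 in B6 and 5179 in CIITA-/-), and the remaining one (100225_f_at) lay below the noise limit. The bright probe sets of this gene thus differ in sign in experiments 2 and 3 and share it in experiment 1. Psmc5 (160534_at) read 5266, 5547 and 6466 in experiment 2 and 6093, 6133 and 6135 in experiment 3, with IAb-/- above B6 by 0.15 (95% interval -0.25 to 0.56). In experiment 3 its groups were nearly level. Psmc1, Psmc2 and Psmc6 differed by -0.07 to 0.04 in both comparisons with B6. Psmc4 was below the noise limit on every array.

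Among the non-ATPase cap subunits, Psmd8 (98522_at) was higher on all 4 mutant arrays than on both B6 arrays. It read 16283 in B6, 17908 in CIITA-/- and 18221 in IAb-/- in experiment 2, and 15225, 17815 and 16764 in experiment 3. The log2 difference was 0.18 (SE 0.14, adjusted p = 0.931) for CIITA-/- and 0.15 (SE 0.14, adjusted p = 1) for IAb-/-, so neither passed. In experiment 1 CIITA-/- was again above B6 (28219 against 25474) but IAb-/- was below it (21368). Psmd3 (92769_at) went the other way, lower on all 4 mutant arrays than on both B6 arrays (log2 -0.11 for CIITA-/- and -0.08 for IAb-/-). In experiment 1 its differences were 0.37 and 0.54. Psmd14 (97274_at), the cap enzyme that cuts ubiquitin chains off the substrate, read 7463, 8043 and 7328 in experiment 2 and 9546, 7244 and 7384 in experiment 3. The B6 array of experiment 3 stood above the other 5, and the log2 difference of IAb-/- from B6 was -0.20 (95% interval -0.67 to 0.27, adjusted p = 1). In experiment 1 it read 11057, 11961 and 10634. Psmd7 (103350_at), the partner of Psmd14, read 7501, 6804 and 6999 in experiment 2 and 6855, 7434 and 8886 in experiment 3, with overlapping groups. Its IAb-/- array was the highest of experiment 3 and the lowest of experiment 1 (7293, 7885 and 5361). The ubiquitin receptor Psmd4 stayed between 14616 and 15659, a 1.07-fold range over the 6 arrays. Psmd11 had 2 bright probe sets, with log2 differences of CIITA-/- from B6 of 0.13 (160305_at) and 0.07 (94796_at). The second was level in experiment 3, at 8925 in both groups.

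Of the chaperones that assemble the cap base, Psmd5 (96698_at) read 5344 in B6, 6598 in CIITA-/- and 5518 in IAb-/- in experiment 2, and 5989, 6287 and 6323 in experiment 3. CIITA-/- lay above B6 in both experiments (log2 0.19, 95% interval -0.22 to 0.59, adjusted p = 0.931) and in experiment 1 (6476 against 5473). IAb-/- lay above B6 in experiments 2 and 3 but below it in experiment 1 (4686). Psmd9 (97929_r_at) read 4765 in B6, 4783 in CIITA-/- and 4660.0 in IAb-/- in experiment 2, and 5211, 4907 and 4726 in experiment 3. Both IAb-/- arrays were lowest (log2 -0.09 against B6, 95% interval -0.44 to 0.27, adjusted p = 1), but in experiment 1 IAb-/- was highest, with 5594 beside 5162 in B6 and 4936 in CIITA-/-.

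No activator gene passed the test. Psme1 (101510_at), a subunit of the interferon-responsive activator ring, read 21620 in B6, 20655 in CIITA-/- and 21191 in IAb-/- in experiment 2, and 23352, 22066 and 20428 in experiment 3. Both IAb-/- arrays lay below both B6 arrays, by 0.11 on the log2 scale (95% interval -0.47 to 0.25), while in experiment 1 B6 was the lowest, with 21655 beside 22822 and 23427. Psme4 (104115_at), a large single-chain activator, had the widest range of the 35 probe sets, 1.55-fold, from 2393 to 3712, both in IAb-/- (experiments 2 and 3). In B6 it read 3096 and 3298, and in CIITA-/- 2854 and 3378, and in experiment 1 it read 4024 in B6, 3857 in CIITA-/- and 2763 in IAb-/-. Psme3 (93803_at) was below the noise limit in experiments 2 and 3. It read 386 in B6, 1072 in CIITA-/- and 127 in IAb-/- in experiment 2, and 234, 445 and 843 in experiment 3. It passed the limit in experiment 1 in B6 (3116) and IAb-/- (3745.0) but not CIITA-/- (1994). Psme2, the partner of Psme1, is a member only in experiment 1, where it read 1504, 1365 and 272, all below the noise limit of that table. Its probe sets in the other table carry 2 symbols and were left out.

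No proteasome probe set was called in any comparison. Of the 50, 47 passed the filter on low values and were tested, and 0 had an adjusted p under 0.05 (limma with Benjamini-Hochberg adjustment over 9312 probe sets). The background was low too: 0.0966% of all probe sets tested were called for CIITA-/- against B6 (9 probe sets), 0.0107% for IAb-/- against B6 (1) and 0.0215% for CIITA-/- against IAb-/- (2). With the experiment as a replicate block, which treats same-numbered arrays as paired, these counts were 0, 0 and 0, and the members again gave 0. At an unadjusted p under 0.05 there was 1 of 47 in each comparison, beside 5.86%, 4.31% and 4.54% of all probe sets. The comparisons with B6 share the same B6 arrays, and the remaining one shares its arrays with both.

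The intervals show how much change these arrays leave room for in the fit without the experiment block. Shifts shared by the arrays of an experiment add to their width. All 35 bright probe sets had 95% intervals inside -1 to 1 on the log2 scale, a 2-fold change either way, in all 3 comparisons. So did most bright probe sets of any gene, 3390, 3412 and 3438 of the 3692. The outermost bounds of the 35 were -0.81 and 0.70 for CIITA-/- against B6, -0.78 and 0.66 for IAb-/- against B6, and -0.73 and 0.74 for CIITA-/- against IAb-/-. Each probe set has its own interval, and these bounds are not a limit of detection: none of the 3692 bright probe sets was called by limma in any comparison, with 60, 59 and 56 at an unadjusted p under 0.05. The differences themselves were within 0.2 of 0 for 33, 35 and 35 of the 35 probe sets (94.3%, 100% and 100%). For the 3692 bright probe sets, which were not matched for intensity, the shares were 73.6%, 77.7% and 81.2%. The members' differences were divided in sign, with 17 higher and 18 lower, 15 and 20, and 17 and 18. Their median was -0.01 in each comparison, beside 0.01, 0.01 and 0.00 for the 3692. Groups that did not overlap were found for 9, 10 and 3 of the 35 (25.7%, 28.6% and 8.57%), beside 41.4%, 32.3% and 23.7% of all bright probe sets. Dim probe sets included, they were found for 15, 13 and 7 of the 47 members tested, beside 38.8%, 32.3% and 25.9% of all probe sets tested.

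**Figure D3:**
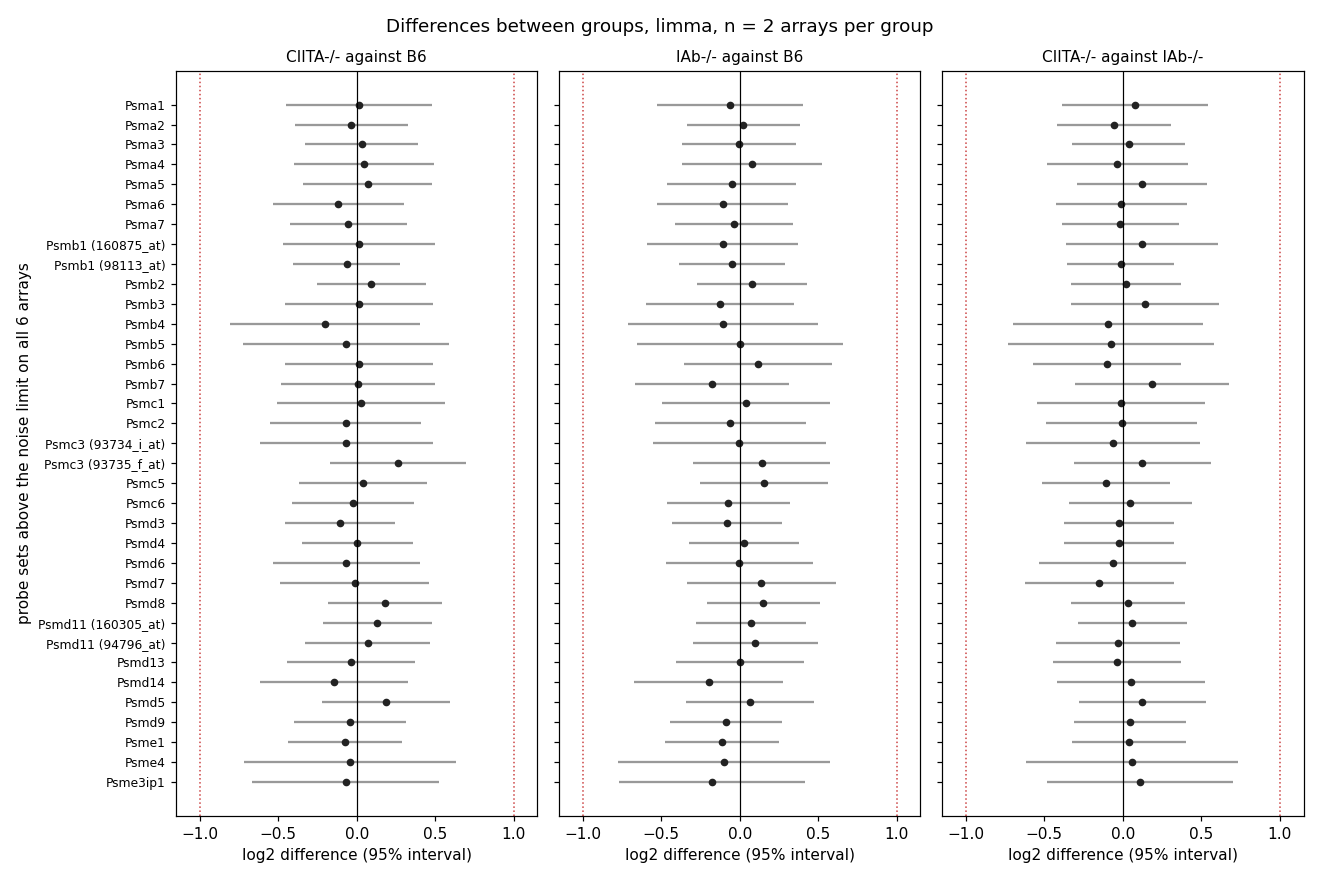
Log2 differences with 95% intervals for the 35 probe sets above the noise limit on all 6 arrays, in 3 comparisons, with dotted lines at -1 and 1. Points lie between -0.20 and 0.26 and every interval holds 0 and stays inside the dotted lines.

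The members under the noise limit gave the largest and least certain values. The 3 with an unadjusted p under 0.05 were all of this kind: Psmd12 for CIITA-/- against B6 (log2 -1.38, adjusted p = 0.845), Psmd10 for IAb-/- against B6 (-1.78, adjusted p = 1) and Psmd2 for CIITA-/- against IAb-/- (-1.38, adjusted p = 1). Psmd12 (93971_f_at), a scaffold of the cap lid, read 1252, 881 and 531 in experiment 2 and 1546, 326 and 708 in experiment 3. Psmd10 (103319_at), a chaperone also called gankyrin, read 1126, 1060.2 and 465 in experiment 2 and 1194, 403 and 244 in experiment 3. Psmd2 (92645_at), a large scaffold of the cap base, read 181, 151 and 580 in experiment 2, the last in IAb-/-, and 224, 125 and 221 in experiment 3. In experiment 1 these 3 differences had the opposite sign, at 1.22, 1.56 and 2.52, also from values under that table's noise limit, 1 of them (Psmd2 in IAb-/-) below 0 and set to the floor. Psmd1, the other large base subunit, ranged from -1826 to 1130.2, both in experiment 2 (CIITA-/- and B6).

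Experiment 1, on its own array design and with 1 array a group, allows values but no test. For CIITA-/- against B6, 25 of the 31 member probe sets above its noise limit were higher (80.6%), beside 51.2% of the 3333 probe sets above it. Their median log2 difference was 0.15, beside 0.01, and the range was -0.20 to 0.52, with Psmb3 at the top (10052 in B6 and 14374 in CIITA-/-). All 4 ATPase and all 7 non-ATPase cap probe sets that could be followed through the 3 experiments were higher, with medians of 0.28 and 0.15. The ATPase probe sets include both bright ones of Psmc3. In the alpha ring and in the beta ring 5 of 7 were higher, with medians of 0.03 and 0.12. The tilt was weaker in experiment 2 and not seen in experiment 3. Over the 30 probe sets followed through all 3, the median was 0.15 in experiment 1, 0.02 in experiment 2 and -0.04 in experiment 3. In the same order, 24, 19 and 13 of the 30 were higher (80.0%, 63.3% and 43.3%). The shares were 53.5%, 52.6% and 50.3% for the 2876 bright probe sets present on all 9 arrays. For IAb-/- against B6 the medians were 0.02, -0.06 and 0.05, with 16, 7 and 18 higher. For CIITA-/- against IAb-/- they were 0.12, 0.06 and -0.10, with 18, 19 and 6 higher. Of the 2876 probe sets, 51.3%, 51.6% and 49.1% were higher for IAb-/- against B6, and 48.5%, 48.4% and 48.1% for CIITA-/- against IAb-/-. The side on which most subunits fell thus changed between experiments in all 3 comparisons. A same sign in all 3 experiments was found for 5 of 30 probe sets in CIITA-/- against B6, all higher (Psma3, Psmc3, Psmd5, Psmd8 and Psmd11, the last level in experiment 3 but for the decimals). In IAb-/- against B6 it was found for 5 (Psmb2 and Psmc3 higher, Psmc2, Psmd14 and Psme3ip1 lower), and in CIITA-/- against IAb-/- for 2 (Psmb4 and Psmd3, lower). These are 16.7%, 16.7% and 6.67%, beside 30.8%, 27.4% and 26.2% of the 2876 bright probe sets present on all 9 arrays.

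**Figure D4:**
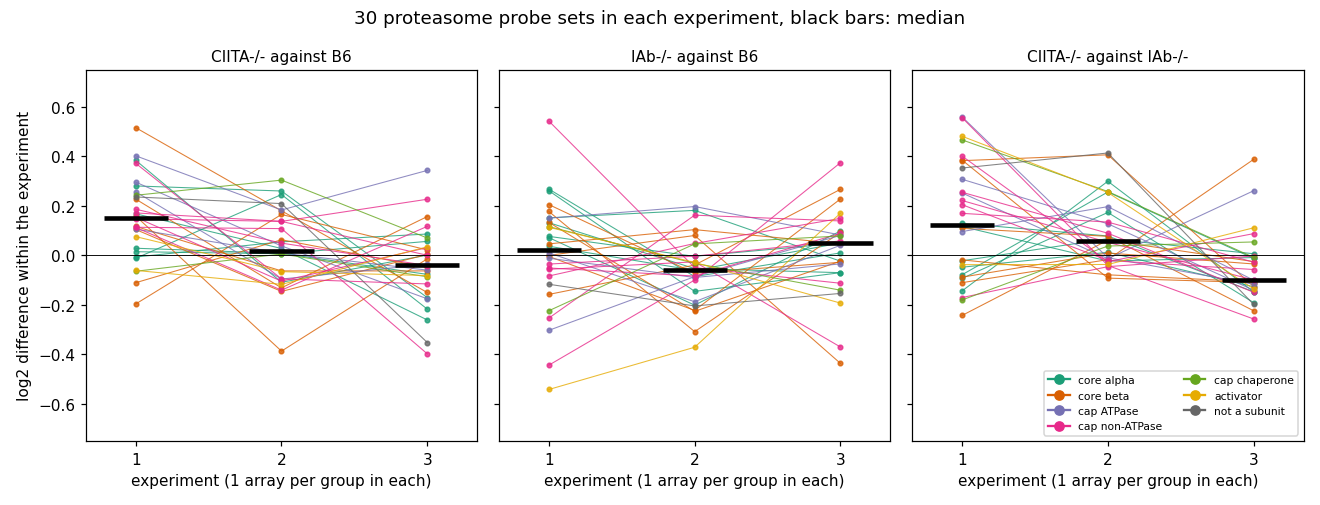
Within-experiment log2 differences of 30 proteasome probe sets above the noise limit on all 9 arrays, 1 point a probe set, with a black bar at the median of each experiment. For CIITA-/- against B6 the bar falls from 0.15 in experiment 1 to 0.02 and -0.04 in experiments 2 and 3, and for CIITA-/- against IAb-/- from 0.12 to 0.06 and -0.10.

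From experiment 2 to experiment 3 the median subunit was higher in B6 and IAb-/- but level in CIITA-/-. The median of experiment 3 minus experiment 2 over the 35 probe sets was 0.09 in B6, 0.00 in CIITA-/- and 0.17 in IAb-/-, beside 0.00 in each group for all bright probe sets. In all 3 groups alike, 12 of the 35 were higher in experiment 3 and 3 were lower, while of the 3692 bright probe sets 770 were higher and 749 lower (42.9% and 41.1% one way or the other). The members' split was thus uneven and that of all bright probe sets nearly even. By the mean of the 3 groups Psmb5 shifted most, by 0.13 in B6, 0.28 in CIITA-/- and 0.58 in IAb-/-, and Psmc1 shifted by 0.25, 0.29 and 0.29. Within single groups others shifted more, Psmd14 by 0.36 in B6, Psmb4 by 0.40 in CIITA-/- and Psme4 by 0.63 in IAb-/-. The IAb-/- arrays stood farthest apart. Set against each probe set's mean over the 6 arrays, the members had a median of -0.08 on IAb-/- replicate 2, the lowest, and 0.06 on IAb-/- replicate 3, the highest. The spike-in control Cre was highest on the first of these (140310) and lowest on the second (78903), and lay between 93949 and 108986 on the other 4. The part of this in the result was not tested. Without IAb-/- replicate 2 the median of the 47 tested members for IAb-/- against B6 was 0.08, and without IAb-/- replicate 3 it was -0.10, beside -0.04 with both.

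Other genes of the pathway were counted from a list of 42, of which 22 were measured under a single symbol in 31 probe sets. None of the 28 probe sets tested was called by limma in either direction in any comparison, and at an unadjusted p under 0.05 there were 0, 1 (Maff, a partner of Nfe2l1 and Nfe2l2, in IAb-/- against B6) and 0. Maff lay below the noise limit on all 6 arrays, with a log2 difference of 0.78 that was -0.76 in experiment 1. Psmb8, the immunoproteasome counterpart of Psmb5, read 48324, 45540 and 49590 in experiment 2 and 49446, 46884 and 45561.0 in experiment 3 (log2 -0.08 and -0.04 against B6). Psmb9, the counterpart of Psmb6, read 10952 in B6, 9094 in CIITA-/- and 9988 in IAb-/- in experiment 2, and 10418, 7773 and 8387 in experiment 3. Its mutant arrays were lower than both B6 arrays, by 0.35 and 0.22 on the log2 scale, but the difference of CIITA-/- did not pass (95% interval -0.79 to 0.10, adjusted p = 0.931), and in experiment 1 it was -0.08. Psmb10 read 11377, 11502 and 12327 in experiment 2 and 12932, 13656 and 14015 in experiment 3, with overlapping groups. Of the factors that act on subunit genes, Nfe2l1 gave log2 differences of 0.32 and 0.18 for its bright probe sets in IAb-/- against B6, and Nfe2l2, a related factor, gave 0.45 (SE 0.35). None passed. In experiment 1 Nfe2l2 was lower in IAb-/- (8874) than in B6 (9812), a log2 difference of -0.145. The Nfe2l1 probe set with the higher value read 4898 in B6 and 7299 in IAb-/- in experiment 2, 4779 and 5024 in experiment 3, and 2433 and 3686 in experiment 1, above B6 each time. Pomp, which assembles the core, differed by 0.03 and 0.10 from B6, and Sem1, a small cap subunit, by -0.03 and -0.04. In experiment 1 Pomp differed by -0.20 and -0.21, and Sem1 by 0.26 and -0.02.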

How the data were processed

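RNA of day 10 DCs was measured on 9 Affymetrix arrays. The authors deposited 1 linear intensity per probe set and array. The sources used here do not name the algorithm. In the values themselves, every array shares one trimmed mean (2% off each end: 2502 in the table of experiments 2 and 3, 2500.0 in that of experiment 1), and no further scaling was done. Tests used experiments 2 and 3. Intensities under the 30th percentile of the table (123.5; 93.2 in experiment 1) were raised to this floor and log2 transformed. The 9312 of 12422 probe sets exceeding the floor on 2 or more arrays were fitted in limma 3.58.1 (R 4.3.3; lmFit, eBayes, 3 groups in one model, 3 residual degrees of freedom), with Benjamini-Hochberg adjustment and calls at 0.05. The floor can move log2 differences of dim probe sets either way. The scripts were tested on simulated data. The number of arrays limits the precision.

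Groups and experiment numbers came from the titles; 1 CIITA-/- title has no number and was given 2, the only one left in its group. The shared experiment pairs the arrays: deviations from the group means correlated between groups at 0.05, 0.08 and 0.21 across 9312 probe sets and at 0.22, 0.30 and 0.31 across the 3692 above the noise limit on all 6 arrays; probe sets are not independent replicates. The members, gene lists, noise limit and motifs were chosen with earlier results of these data known. Every array's value is printed for the brightest probe set of each catalytic beta gene and activator. The same holds, in each role and comparison, for the bright member with the smallest p. Others were named after their values were seen. Probe set names with _f, _s, _i or _r mark probes that may match more than 1 transcript or an incomplete set. Alternatives were the floor, the filter, the scaling, the block, the probe set per gene and leaving out each array. Psmb11 and Psma8 were not analysed here.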

Additional observations from a re-analysis of the deposited data

How the results depend on the processing

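No member was called under any of the 16 settings in any comparison, and the lowest member adjusted p over them (limma, Benjamini-Hochberg) was 0.254, 0.378 and 0.295 for CIITA-/- against B6, IAb-/- against B6 and CIITA-/- against IAb-/-. The counts over all probe sets (9, 1 and 2) moved by over 1.5 times. They were 18, 4 and 6 with the floor at the 25th percentile, an alternative chosen after seeing the data because the planned 20th percentile is -32 and has no log. They were 5, 0 and 1 with the 40th percentile, 14, 5 and 7 with no filter, 4, 0 and 4 with only probe sets above the noise limit, 0, 0 and 0 with the replicate block, and 1, 0 and 0 with only the 2 groups compared. The replicate block over all 9 arrays gave 4 for CIITA-/- against B6 and 0 for IAb-/- against B6, and quantile normalization gave 3 for IAb-/- against B6. Leaving out each array gave 0 to 1, 0, and 0 to 1. The median over the tested members for CIITA-/- against B6 (-0.03) was 0.026 with the block over all 9 arrays, 0.15 in experiment 1 and -0.053 to 0.024 on leaving out an array, 0.024 without B6 replicate 3. For IAb-/- against B6 (-0.04) it was -0.097 to 0.085 on leaving out an array. For CIITA-/- against IAb-/- (-0.01) it was 0.10 in experiment 1. The causes were not tested. Of 756 named member values under 15 alternatives, 738 lay within 1 SE of the reported value, and 60 changed sign, 4 of them among values over 0.2 in size.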

Other observations

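Probe sets present in only one of the array designs could not be followed across experiments. Of the 10 member probe sets found only in the table of experiments 2 and 3, 5 lay above the noise limit on all 6 arrays. Of the 9 found only in that of experiment 1, 8 lay below its noise limit on all 3 arrays, and the remaining one, a Psmb1 probe set (98713_f_at), read 18941 in B6, 20569 in CIITA-/- and 21431 in IAb-/-.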
